A study of Mus musculus with 12 samples.

Results

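The immediate early genes described here are 10 genes of the AP-1, EGR and stress-kinase response, Fos, Fosb, Fosl2, Jun, Junb, Jund, Egr1, Atf3, Myc and Dusp1. Every probe set whose platform symbol is 1 of these names was taken, which gave 10 of 18193 named genes and 13 of the 45037 non-control probe sets on the array: 2 each for Fosl2, Jun and Jund and 1 for each other gene. The left ventricle of 12 male C57BL/6 mice was measured, 1 heart per Affymetrix mouse full-genome array, with 3 arrays in each of 4 groups. ATF6-MER, the transgene of the transgenic (TG) mice, joins the endoplasmic reticulum (ER) stress factor ATF6 to an estrogen receptor domain, mutated and of mouse origin, that answers to tamoxifen, and non-transgenic (NTG) mice are their littermates. TG tamoxifen and NTG tamoxifen received the drug, and TG vehicle and NTG vehicle received the vehicle. Mice were about 30 weeks old, except that TG tamoxifen 1 is labelled 40 weeks. The sources used here do not give the drug dose, the length of treatment or the promoter that drives the transgene.

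Immediate early genes are transcribed within minutes of a growth, stretch or stress signal without new protein synthesis, and most of their transcripts decay fast. FOS proteins pair with JUN proteins through leucine zippers to form AP-1, a transcription factor that binds DNA as a dimer. Egr1 encodes a zinc finger activator, Myc a growth regulator of ribosome and metabolic genes, Atf3 a bZIP factor that both the MAP kinase and the PERK to ATF4 pathways induce, and Dusp1 a phosphatase that switches MAP kinases off. In the heart these genes are known for their quick response to pressure load, ischaemia and adrenergic drive.

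Before the start sites of these genes, sites for the same protein families are known from textbook work, so 5 promoters are shown as the sequence context of the members whose levels are compared below. Promoters of 8 of the 10 genes were found in the RefSeq table (build GRCm38.p6), not those of Egr1 and Myc. Each line gives the 250 bases before the annotated start, 5′ to 3′ on the gene's strand. Capitals mark the ATF and CREB core TGACGT on either strand, the Jun promoter element TGACATCA, the EGR site GCGNGGGCG and the TATA box TATAAA.
Fos, chr12:85473640-85473889, plus strand: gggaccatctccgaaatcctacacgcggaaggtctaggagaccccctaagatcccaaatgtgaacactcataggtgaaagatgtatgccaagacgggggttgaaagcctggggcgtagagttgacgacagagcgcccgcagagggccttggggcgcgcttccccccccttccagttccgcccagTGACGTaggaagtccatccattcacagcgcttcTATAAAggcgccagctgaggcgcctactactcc
Fosl2, chr5:32136222-32136471, plus strand: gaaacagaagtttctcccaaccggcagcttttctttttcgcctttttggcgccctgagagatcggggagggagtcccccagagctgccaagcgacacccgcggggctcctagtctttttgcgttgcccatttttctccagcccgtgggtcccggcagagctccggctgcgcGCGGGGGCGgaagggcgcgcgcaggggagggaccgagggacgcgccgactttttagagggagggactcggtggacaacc
Jun, chr4:95052223-95052472, minus strand: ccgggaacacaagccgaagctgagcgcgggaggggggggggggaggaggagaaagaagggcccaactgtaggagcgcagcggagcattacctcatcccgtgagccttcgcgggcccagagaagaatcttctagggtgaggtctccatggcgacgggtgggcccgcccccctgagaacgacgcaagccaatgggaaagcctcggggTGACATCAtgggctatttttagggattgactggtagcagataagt
Atf3, chr1:191183334-191183583, minus strand: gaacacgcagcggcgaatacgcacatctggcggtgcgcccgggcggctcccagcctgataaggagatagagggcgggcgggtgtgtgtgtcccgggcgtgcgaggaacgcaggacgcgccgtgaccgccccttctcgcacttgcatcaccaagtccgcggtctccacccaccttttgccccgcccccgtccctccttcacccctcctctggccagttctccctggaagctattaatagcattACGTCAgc
Dusp1, chr17:26508473-26508722, minus strand: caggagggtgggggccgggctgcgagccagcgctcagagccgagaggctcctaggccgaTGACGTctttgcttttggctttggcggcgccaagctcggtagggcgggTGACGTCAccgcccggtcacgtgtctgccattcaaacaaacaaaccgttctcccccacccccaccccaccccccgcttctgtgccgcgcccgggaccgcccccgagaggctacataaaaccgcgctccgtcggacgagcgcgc

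Counting the annotated start as base 0, the Fos window holds TGACGT at -66 to -61 and TATAAA at -33 to -28. Atf3 holds the same core on the other strand at -8 to -3, and Dusp1 holds it at -191 to -186 and within a full cyclic AMP response element, TGACGTCA, at -143 to -136. Fosl2 has the EGR site at -79 to -71, and Fosb, which is not printed, has it at -50 to -42. Jun has TGACATCA at -45 to -38. Over both strands of all 32851 promoters of 300 bases in that table, TGACGT was in 7.51%, TGACGTCA in 1.79%, TGACATCA in 3.62%, GCGNGGGCG in 5.55% and TATAAA in 13.6%. In the 8 member windows 0 held the AP-1 site TGANTCA (7.81% of all promoters), 0 the ATF6 and XBP1 element TGACGTGG (0.676%, which shares its first 6 letters with TGACGTCA), 0 the CArG box (1.63%), 0 the ER stress response element of CCAAT and CCACG with 9 bases between (0.119%) and 0 the estrogen response element (0.07%). The E-box CACGTG, a site of MYC dimers, was in Dusp1 at -126 to -121 and in 7.15% of all promoters. The CCAAT box was in 3 member windows (37.4% of all) and the GC box GGGCGG, which overlaps the EGR sites, in 6 (35.7% of all). These are matches of letters in a short window and say nothing of binding. Sites outside the windows, and those of Egr1 and Myc, were not searched, so a member without a match may hold the site elsewhere.

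Levels are given as log2(intensity + 16) after quantile normalization, and a change is a difference of group means on that scale, which understates changes of dim probe sets. Esr1, the estrogen receptor gene read by the fusion's domain, lay at 16.67 to 18.26 on the 6 TG arrays and at 10.88 or below on 5 NTG arrays, but at 17.72 on the library labelled NTG tamoxifen 1, whose Hspa5 (the chaperone BiP) of 18.06 was also far above the 15.49 and 15.65 of the other two. That array goes against its label, so comparisons that use NTG tamoxifen were also fitted without it. TG vehicle 3 has vehicle in its title and tamoxifen in its treatment field, and was grouped by title. Actin 3' to 5' probe set ratios, which rise with RNA degradation, averaged 1.81 ± 0.0671 (SD, n = 3) in TG tamoxifen and 1.5 ± 0.177 in TG vehicle. For NTG hearts they averaged 1.89 ± 0.0987 with tamoxifen and 2.28 ± 0.158 with vehicle. TG tamoxifen (1.75 to 1.88) and TG vehicle (1.32 to 1.68) did not overlap in the actin ratio. Nor did NTG tamoxifen (1.78 to 1.97) and NTG vehicle (2.12 to 2.43), or the 2 vehicle groups. In the GAPDH ratio the vehicle groups did not overlap (0.759 to 0.787 in TG vehicle, 0.886 to 1.01 in NTG vehicle). NTG tamoxifen, at 0.766 to 0.852, was also apart from NTG vehicle there, while TG tamoxifen, at 0.745 to 0.778, overlapped TG vehicle. The part of these ratios in the results was not tested. The ventricle's muscle markers were bright on every array, with all 8 at an intensity of 36250 or more.

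Of the 9 macrophage and leukocyte markers, 3 rose in TG tamoxifen against TG vehicle, the leukocyte antigen Ptprc, the chemokine receptor Ccr2 and the integrin Itgam, by 1.40 ± 0.28, 2.69 ± 0.52 and 2.64 ± 0.53 log2 units (± SE throughout for changes). The summed intensity of all 9 overlapped between TG tamoxifen, at 97220 to 151300 (median 102900), and TG vehicle, at 53300 to 104900 (median 101100). It was between 46280 and 47440 for NTG tamoxifen and between 52410 and 59330 for NTG vehicle. The dimmest marker value was 95.29, so that none was at 0. Endothelial markers passed for 0 of 6, with 4 at an unadjusted p under 0.05 and a median change of -0.59, and their sums, 28780 to 31720 against 37760 to 48750 for TG vehicle, did not overlap. Muscle marker sums did not overlap either, at 2250000 to 2323000 against 2494000 to 2566000. Of these 8 markers 0 passed the threshold, with 1 at an unadjusted p under 0.05. Of the 6 fibroblast markers 0 passed, with 2 at an unadjusted p under 0.05. Fibroblast sums did not overlap, at 189400 to 222100 against 224300 to 259100. Smooth muscle sums overlapped, at 37890 to 73100 against 18960 to 64860, and 0 of 4 markers passed. Leukocytes and activated vessel cells also express immediate early genes, and the part of these cells in the members' changes was not tested. In whole ventricle, fewer cells of a type and less RNA per cell cannot be told apart.

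In TG tamoxifen against TG vehicle, which compared the fusion with and without its drug, Myc, Egr1 and Fosl2 rose. Egr1 rose 3.21-fold, Fosl2 2.21-fold, and Myc by 4.84 log2 units from TG vehicle values that were dim and spread widely, so that its fold is poorly fixed. Fos, Junb, Atf3 and Fosb read 2.06, 1.30, 1.41 and 1.11 log2 units higher without passing the threshold, Dusp1 read 1.08 lower with an adjusted p just above it, and Jun and Jund differed by less than 0.5. In this fit 3 of the 10 genes were higher and 0 lower (limma, adjusted p under 0.05). At an unadjusted p under 0.05 were 6 of the 10 genes, and 8685 of all 45037 probe sets. Among all probe sets 1.41% were higher and 1.7% lower, and among the 11165 genes whose brightest probe set reached the middle of the intensity range 2.13% were higher and 3.82% lower. The 3 arrays of TG tamoxifen lay above all 3 of TG vehicle for 7 of the 10 genes and below them for 1, where 13.7% and 13.8% of all probe sets did so. The median change of the 10 genes was 1.22 log2 units, against -0.02 for all probe sets. The actin ratios given above were also apart between TG tamoxifen and TG vehicle.

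**Figure D1:**
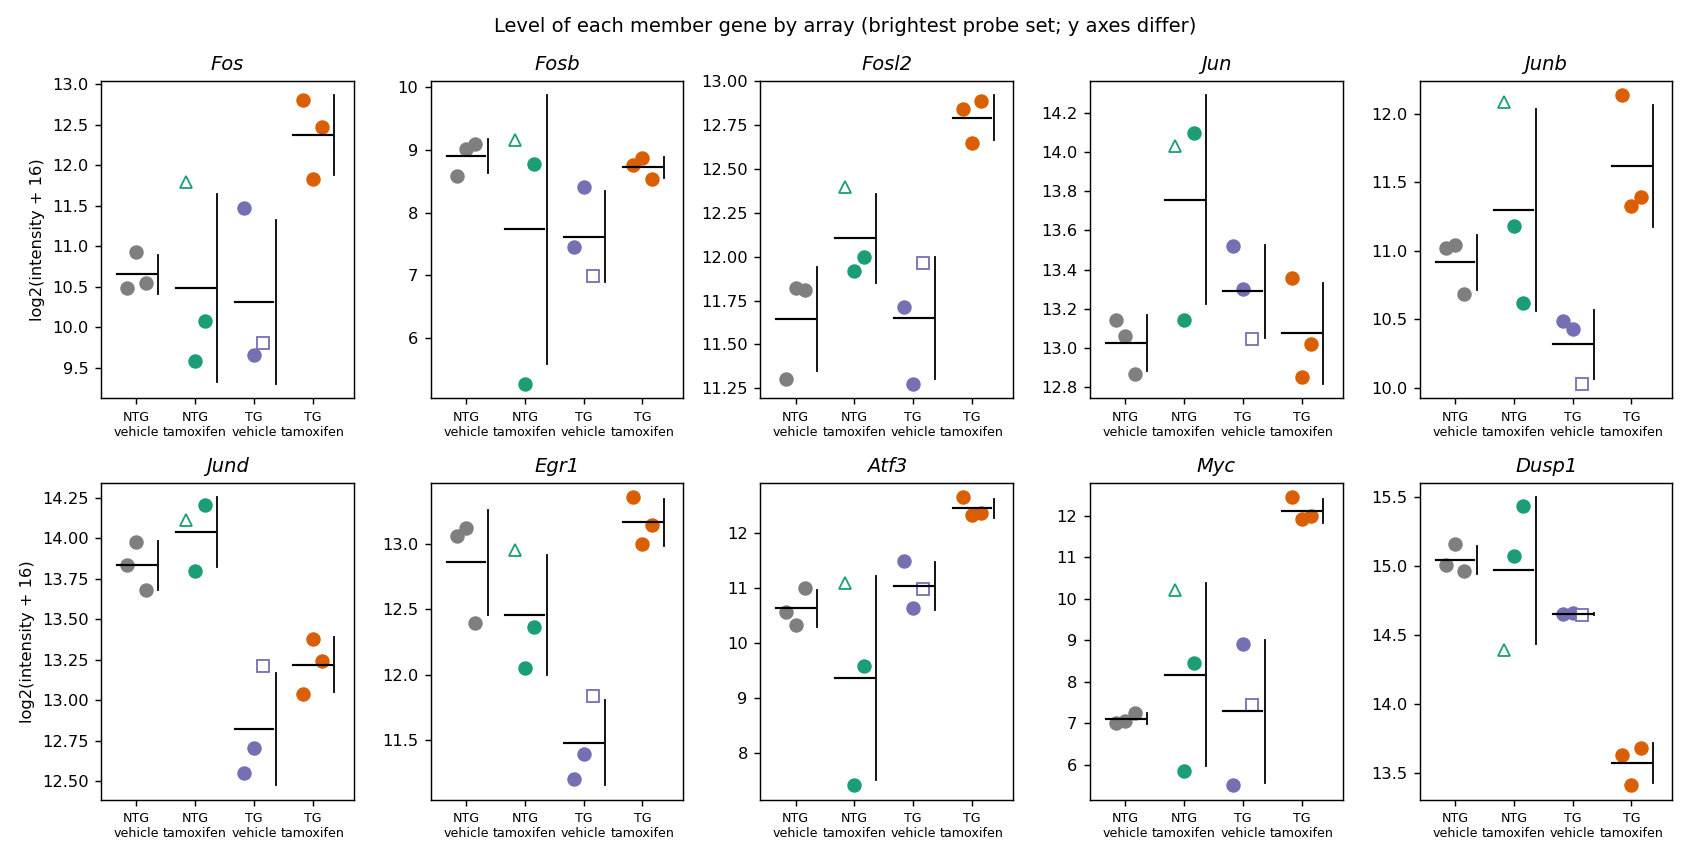
Level of each member gene on every array, as log2(intensity + 16) of its brightest probe set, by group. Points are arrays, the bar is the group mean and the line beside it ± 1 SD (n = 3). The open triangle is NTG tamoxifen 1 and the open square TG vehicle 3. Myc in TG tamoxifen sits at 11.92 to 12.45, and Dusp1 at 13.41 to 13.68 lies below every other array.

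The number of calls, among the members and among all probe sets, depended on single arrays. No member gene passed when any 1 of the 6 TG arrays was left out, where 6 or 7 had an unadjusted p below 0.05. Of all 45037 probe sets 1399 passed with every array, and 16, 81 and 18 without TG tamoxifen 1, 2 or 3. Without TG vehicle 1, 2 or 3, 858, 18 and 41 of them passed. Just 1 member gene was called without NTG vehicle 1, 2 or 3, where 575, 491 and 614 probe sets passed. Without NTG tamoxifen 2 or 3, 2 member genes were called, with 1283 and 1297 probe sets. Once NTG tamoxifen 1, which here enters just the estimate of the spread, was dropped, 6 member genes passed. In that last fit 2575 of the 45037 probe sets passed. The 6 member genes were Myc, Egr1, Fosl2, Fos (adjusted p = 0.0407), Junb (0.0331) and, lower, Dusp1 (0.0133). With TG vehicle 3 grouped by its treatment field, which its Hspa5 goes against, 0 member genes and 4 of the 45037 probe sets passed.

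Among the FOS genes, Fos itself read 12.80, 11.83 and 12.47 in TG tamoxifen and 11.48, 9.66 and 9.81 in TG vehicle. All 3 drug-treated arrays lay above the vehicle arrays, though TG vehicle 1 came within 0.5 of the lowest of them. The change was 2.06 ± 0.61 (95% interval 0.69 to 3.42, adjusted p = 0.0987). In NTG tamoxifen Fos read 11.79 on array 1 and 9.59 and 10.08 on the others, and in NTG vehicle 10.49 to 10.93. TG tamoxifen was thus above all 9 other arrays, though only just above NTG tamoxifen 1.

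Fosl2, also called FRA2, a FOS relative without a strong activation domain, was read by 2 probe sets that disagreed. The brighter, 1437247_at, gave 12.84, 12.65 and 12.89 in TG tamoxifen against 11.71, 11.28 and 11.96 in TG vehicle, without overlap, a rise of 1.14 ± 0.26 (adjusted p = 0.0447). The dimmer, 1422931_at, differed by 0.10 ± 0.51 (95% interval -1.03 to 1.22, adjusted p = 0.950), with overlapping arrays. On 1437247_at the TG tamoxifen arrays were also above the 6 NTG arrays, which read 11.30 to 12.40. Fosb, a FOS relative best known from neurons, was dim, below the middle of the intensity range, at 8.54 to 8.87 in TG tamoxifen and 6.99 to 8.41 in TG vehicle. Its change of 1.11 ± 0.84 had an adjusted p of 0.527, and NTG vehicle, at 8.59 to 9.10, overlapped TG tamoxifen.

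None of the 3 JUN genes passed in this comparison. Junb, a JUN protein that often restrains Jun, read 12.13, 11.33 and 11.39 in TG tamoxifen and 10.49, 10.43 and 10.03 in TG vehicle. These arrays did not overlap, and the change was 1.30 ± 0.37 (2.47-fold, adjusted p = 0.0884). NTG tamoxifen 1, at 12.08, lay within the TG tamoxifen range for Junb, and the other NTG arrays read 10.62 to 11.18. Jun, the founding JUN gene, changed by -0.21 ± 0.29 (95% interval -0.86 to 0.43, adjusted p = 0.754) on 1417409_at and by -0.15 ± 0.20 on 1448694_at. Jund, which is expressed without stimulation in many tissues, read 13.04 to 13.38 in TG tamoxifen and 12.55 to 13.21 in TG vehicle, a change of 0.40 ± 0.24 (adjusted p = 0.404) on its brighter probe set. Its other probe set, 1440265_at, was dim and gave -0.10 ± 0.72.

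Egr1 read 13.36, 13 and 13.14 in TG tamoxifen and 11.21, 11.40 and 11.84 in TG vehicle. Its rise of 1.68 ± 0.31 (95% interval 0.9993 to 2.37, adjusted p = 0.0270) had a gap of more than 1 log2 unit between the groups. The level reached was not above that of the vehicle-treated littermates, since NTG vehicle read 13.06, 13.12 and 12.40 and overlapped TG tamoxifen. For Egr1 it was TG vehicle that stood apart, below all other 9 arrays.

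Atf3 read 12.64, 12.31 and 12.36 in TG tamoxifen and 11.48, 10.63 and 10.98 in TG vehicle. The TG tamoxifen arrays were above all 9 others, but the change of 1.41 ± 0.72 had an adjusted p of 0.319. The spread of Atf3 came mostly from NTG tamoxifen, whose arrays read 11.08, 7.42 and 9.58 (SD 1.84, against 0.18 to 0.43 in the other groups). Without NTG tamoxifen 1 its SE was 0.50 and its adjusted p 0.147.

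Myc showed the largest change of the 10 genes. Deposited intensities were 5595, 3813 and 3898 in TG tamoxifen against 31, 507 and 164 in TG vehicle. On the log2 scale these were 12.45, 11.92 and 11.99 against 5.4998, 8.92 and 7.43, a rise of 4.84 ± 1.03 (95% interval 2.55 to 7.13, adjusted p = 0.0390). NTG vehicle lay at 7.0041 to 7.25 and NTG tamoxifen at 10.21, 5.84 and 8.45, so that TG tamoxifen stood above all 9 other arrays. The mean of the Myc probe set over the 12 arrays was at percentile 37.8 of all probe sets, so a filter at the middle of the intensity range leaves Myc untested, although it is bright in TG tamoxifen. Its change lay between 3.74 and 5.66 over 24 alternatives, and its adjusted p between 0.00495 and 0.451.

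Dusp1, the phosphatase, read 13.63, 13.41 and 13.68 in TG tamoxifen and 14.65, 14.66 and 14.64 in TG vehicle. TG tamoxifen lay below all 9 other arrays, and the difference from TG vehicle was -1.08 ± 0.26 (2.11-fold lower, 95% interval -1.66 to -0.50, adjusted p = 0.0561). The other NTG arrays read 14.96 to 15.44, while NTG tamoxifen 1 read 14.39. With 1 probe set per gene and dim genes left out, where 2774 of 11165 genes passed, the adjusted p of Dusp1 was 0.00790. Over 26 alternatives it ran from 0.00366 to 0.485.

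**Figure D2:**
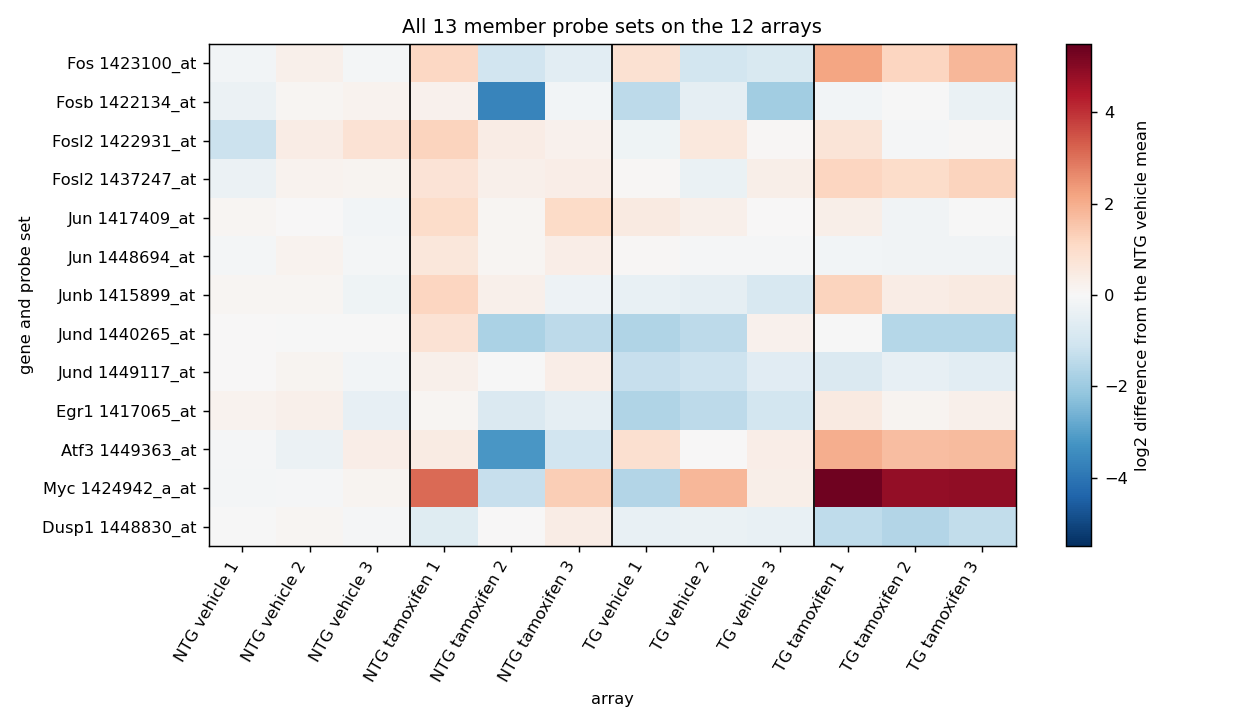
All 13 member probe sets on the 12 arrays, as the log2 difference of each array from the mean of NTG vehicle, with red higher and blue lower. Myc is the strongest red in TG tamoxifen, NTG tamoxifen 1 shows red for Fos, Junb and Myc, and TG vehicle is blue for Egr1 and Jund.

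Fos, Fosl2, Atf3 and Myc were thus the 4 genes whose TG tamoxifen arrays were above all 9 others, where 6.87% of all probe sets were, and Dusp1 was the 1 gene with all of them below, where 5.6% were. The second Jun probe set, 1448694_at, also lay below all others, at 12.76 to 12.79 against 12.85 or more. The array labelled NTG tamoxifen 1 was the highest of its group on 10 of the 13 probe sets and the lowest on 1, Dusp1. Its distance from the mean of the other 2 arrays was 3.07 for Myc, 2.59 for Atf3, 1.96 for Fos and -0.86 for Dusp1.

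In NTG tamoxifen against NTG vehicle, which asked what the drug did without the fusion, 0 of 10 genes passed in limma, with 1, Jun, at an unadjusted p under 0.05. Of all 45037 probe sets 0.0666% passed, and 6144 had an unadjusted p under 0.05. Jun read 0.73 ± 0.29 higher (adjusted p = 0.310), with array values of 14.03, 13.14 and 14.10 against 13.14, 13.06 and 12.87, and 0.60 ± 0.32 higher without NTG tamoxifen 1. Atf3 read -1.26 ± 0.72 (adjusted p = 0.475) and, without NTG tamoxifen 1, -2.13 ± 0.56 (adjusted p = 0.197). Myc read 1.06 ± 1.03 with that array and 0.04 ± 0.95 without it. Egr1 differed by -0.40 ± 0.31 (95% interval -1.09 to 0.28), and by -0.65 ± 0.30 without the array. Dusp1 differed by -0.07 ± 0.26 (-0.66 to 0.51), and by 0.21 ± 0.21 without it, so that its sign turned.

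In TG vehicle against NTG vehicle, which compared the genotypes without drug, 0 of 10 genes passed, where 0.198% of all probe sets did. An unadjusted p under 0.05 was found for 2, Egr1 and Jund, and for 6655 of the 45037 probe sets. The TG arrays lay below the NTG arrays without overlap for 5 genes, Egr1, Jund, Junb, Fosb and Dusp1, as they did for 11.4% of all probe sets, and above them for 0. Egr1 was -1.38 ± 0.31 (2.60-fold lower, 95% interval -2.06 to -0.69, adjusted p = 0.0982). Jund was -1.01 ± 0.24 (2.01-fold lower, adjusted p = 0.111), with TG vehicle at 12.55, 12.70 and 13.21 and NTG vehicle at 13.83, 13.98 and 13.68. Egr1 and Jund both passed when dim probe sets were left out, with adjusted p of 0.0289 and 0.0304 in the fit with 1 probe set per gene. In that fit 405 of 11165 genes passed, and with all probe sets at or above the 50th percentile 1377 of 22519 did. The actin and GAPDH ratios given above were also apart between these groups. Fos, Fosl2, Atf3 and Myc read -0.34 ± 0.61, 0.00 ± 0.26, 0.41 ± 0.72 and 0.18 ± 1.03.

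**Figure D3:**
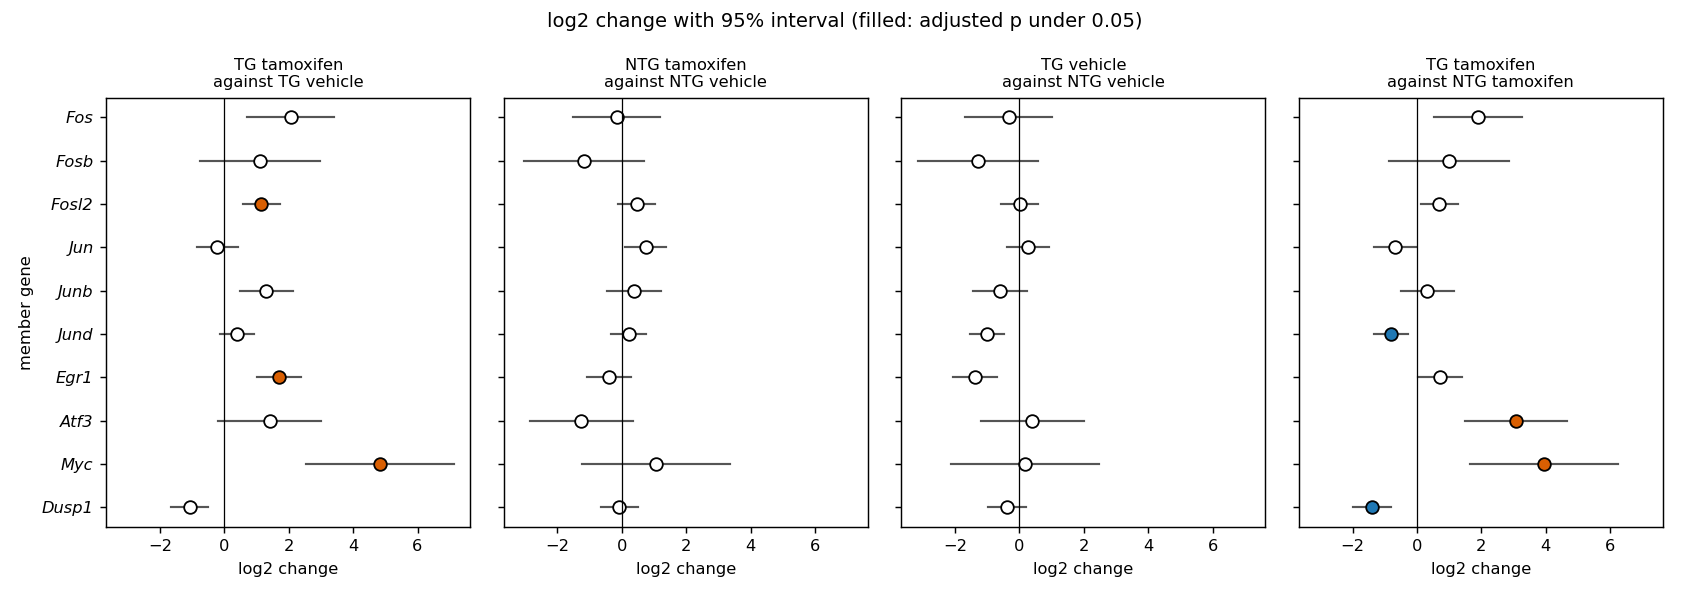
log2 change of each member gene in 4 comparisons, with its 95% interval. Filled circles have an adjusted p under 0.05, orange higher and blue lower. The intervals of Myc, Egr1, Fosl2, Fos and Junb lie above 0 and that of Dusp1 below in TG tamoxifen against TG vehicle, with filled circles for Myc, Egr1 and Fosl2, and those of Egr1 and Jund below 0 in TG vehicle against NTG vehicle.

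In TG tamoxifen against NTG tamoxifen, the genotypes under drug, 4 of the 10 genes passed, where 13.7% of all probe sets did. Atf3 was 8.44-fold higher (3.08 ± 0.72, adjusted p = 0.0203) and Myc higher by 3.95 ± 1.03 log2 units (adjusted p = 0.0310). Dusp1 was 2.63-fold lower (-1.40 ± 0.26, adjusted p = 0.00897) and Jund 1.76-fold lower (-0.82 ± 0.24, adjusted p = 0.0471). Without NTG tamoxifen 1, 6892 of the 45037 probe sets passed. In that fit Atf3 read 3.94 ± 0.56 (adjusted p = 0.00287), Myc 4.97 ± 0.95 (0.00947), Dusp1 -1.68 ± 0.21 (0.00180) and Fos 2.54 ± 0.54 (0.0141). Jund missed the threshold there (0.0856). The count fell to 1, Dusp1, without TG tamoxifen 1, 2 or 3 or without NTG tamoxifen 3. In these fits 3280, 3355, 3538 and 3167 of the 45037 probe sets passed. Egr1 did not pass, at 0.71 ± 0.31 (adjusted p = 0.167) with NTG tamoxifen 1 and 0.96 ± 0.30 (0.0652) without it.

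The interaction of genotype and drug, that is the tamoxifen change in TG hearts minus that in NTG hearts, passed for 0 of 10 genes in limma, with 6 at an unadjusted p under 0.05, where 0.0355% of all probe sets passed. Of all 45037 probe sets 7845 had an unadjusted p under 0.05. Among the members Egr1 came nearest, at 2.09 ± 0.44 (adjusted p = 0.0744). Without the array labelled NTG tamoxifen 1, 3 member genes passed, where 1281 of the 45037 probe sets did. The 3 were Egr1 at 2.34 ± 0.41 (adjusted p = 0.0266), Atf3 at 3.53 ± 0.75 (0.0447) and Dusp1 at -1.29 ± 0.28 (0.0478). Myc read 3.77 ± 1.46 with that array and 4.80 ± 1.28 without it (adjusted p = 0.223 and 0.0830). These comparisons share arrays with those above, so their values are not independent.

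Genes around the members were read through 9 lists of 142 genes, of which 135 were measured, each by its brightest probe set. In TG tamoxifen against TG vehicle 17 of the 135 were higher and 0 lower, to be read against the 1.41% and 2.13% given above. At an unadjusted p under 0.05 were 55 of the 135, and 8685 of all 45037 probe sets. Without NTG tamoxifen 1, 34 of the 135 passed, where 2575 of the 45037 probe sets did. None passed without TG tamoxifen 1, 2 or 3 or without TG vehicle 2 or 3, with 48 to 57 at an unadjusted p under 0.05, and 7 did without TG vehicle 1. Without NTG vehicle 1, 2 or 3 the counts were 7, 5 and 8. The counts over all probe sets in these fits, given above, fell as well. The calls in each list below rest on the full set of arrays in the same way. The median change was 0.43. Some genes stand in more than 1 list.

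Of 30 other immediate early genes 3 rose, with a median change of 0.50. Fosl1, the remaining FOS relative (FRA1), rose by 2.58 ± 0.38 (adjusted p = 0.0202), from a mean of 7.53 to 10.11 and thus from a dim level. Socs3, a feedback inhibitor of cytokine signalling, rose by 3.02 ± 0.45 and Btg2, an antiproliferative gene, by 1.28 ± 0.22 (adjusted p = 0.0210 and 0.0243). Among 13 measured bZIP partners of AP-1, 3 rose, Fosl1, Ddit3 (CHOP) by 2.08 ± 0.43 and Atf4 by 2.07 ± 0.46, with a median of 0.70.

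Among 11 other MAP kinase phosphatases 2 rose. Dusp5, which acts on ERK in the nucleus, rose by 3.54 ± 0.54 (adjusted p = 0.0210), from a mean of 7.20 to 10.74, and Dusp6, which acts on ERK in the cytoplasm, by 0.99 ± 0.23 (adjusted p = 0.0486). Dusp7 read -1.40 ± 0.33 (adjusted p = 0.0523), and the median of the list was 0.09. Of 18 measured genes of the SRF and MAP kinase input 0 passed, with 6 at an unadjusted p under 0.05 and a median of 0.17. The p38 kinase gene Mapk14 read -0.91 ± 0.21 (adjusted p = 0.0506), Map3k5, the stress kinase ASK1, had an adjusted p of 0.0567, and Map2k1, the ERK activator MEK1, read 0.88 ± 0.24 (adjusted p = 0.0747).

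Of 12 genes of the ATF4 branch, which feeds Atf3, 3 rose with a median of 0.73, Ddit3, Atf4 and Chac1, a glutathione-degrading enzyme, by 2.85 ± 0.62 (adjusted p = 0.0419). Of 16 measured AP-1 target genes 4 rose, with a median of 0.96. They were the adhesion receptor Cd44 by 2.59 ± 0.43, the protease inhibitor Timp1 by 2.76 ± 0.58, the cytokine Il6 by 4.85 ± 1.04 and, named after its value was seen, the chemokine Ccl2 by 4.27 ± 0.96 (adjusted p from 0.0221 to 0.0447). Of 12 co-regulators and targets of EGR 2 rose, Cd44 and the adhesion molecule Icam1 by 1.43 ± 0.27, with a median of 0.38.

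Of 11 genes of the MYC network, such as the dimer partner Max and the MXD antagonists, 0 passed, with 2 at an unadjusted p under 0.05 and a median of 0.21. Mxd1 read 2.33 ± 0.70 (adjusted p = 0.101). Of 20 MYC target genes 4 rose, with a median of 0.62. They were Npm1 by 1.18 ± 0.22, Nop58 by 2.28 ± 0.46, Gnl3 by 1.57 ± 0.33 and, named after its value was seen, Fbl by 1.22 ± 0.28 (adjusted p from 0.0277 to 0.0473).

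**Figure D4:**
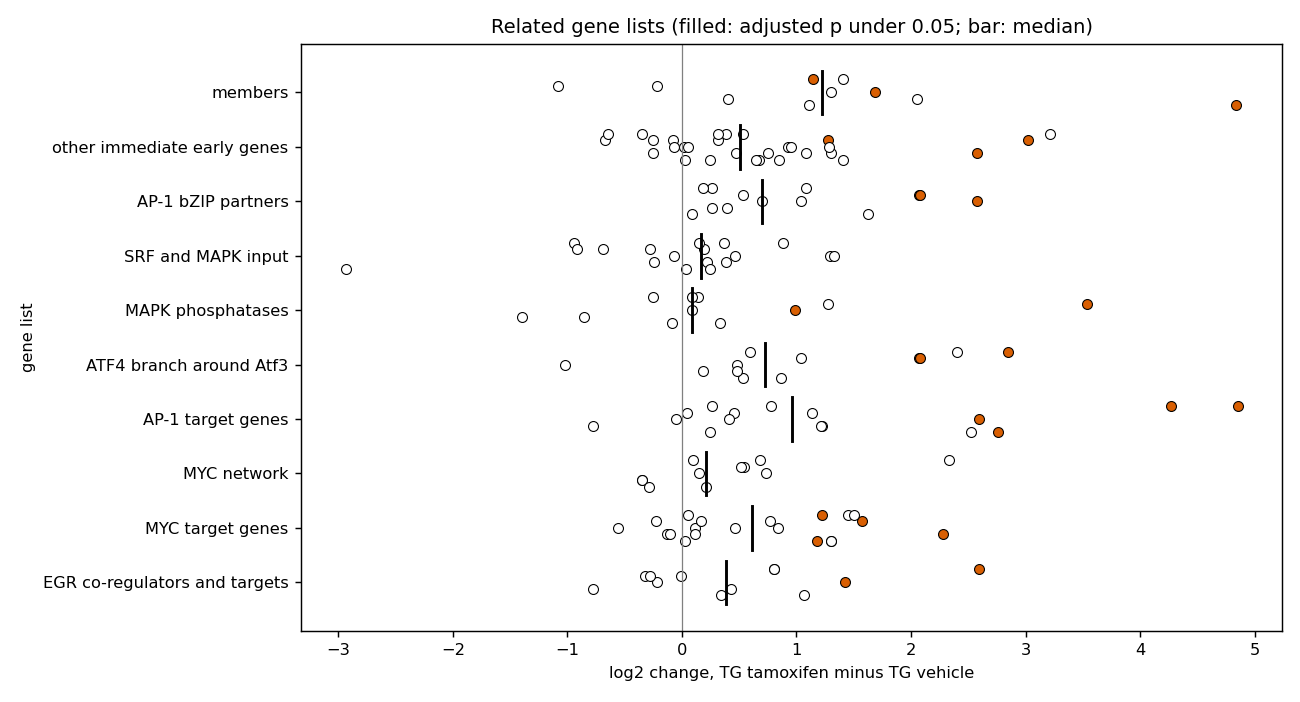
log2 change in TG tamoxifen against TG vehicle for the 10 members and 9 related gene lists, 1 point per gene by its brightest probe set. Orange points have an adjusted p under 0.05 and the bar is the list's median. The members' median is 1.22 and those of the lists run from 0.09 for MAP kinase phosphatases to 0.96 for AP-1 target genes.

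Profiles over the 12 arrays, each centred on its own mean, were set against 11157 non-member genes by their root mean square difference in log2 units. Nearest to Egr1 were Csf2ra (0.34), Ogfrl1 (0.35) and Ehd4 (0.36). Nearest to Fos were Slc20a1 (0.42), Azin1 (0.44) and Hmgcs1 (0.45). Nearest to Atf3 were Cbwd1 (0.46), Zfp53 (0.53) and Cklf (0.54). The SD of the members themselves over the arrays was 0.73 for Egr1, 1.11 for Fos and 1.41 for Atf3.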

How the data were processed

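RNA of 12 mouse left ventricles was hybridised to 1 array each, following the Affymetrix expression protocol per the labels; the summarisation software is not given in the sources used here. The values the authors deposited are linear intensities, already scaled to the same 2% trimmed mean of 2500.02 on every array. Array medians spanned 0.363 log2, more than the 0.2 allowed for keeping that scaling, so intensities were quantile normalized and taken as log2(value + 16). No detection calls were used, and 3 arrays per group limit the precision.

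All 45037 non-control probe sets entered 1 two-sided limma fit (version 3.58.1, R 4.3.3, lmFit and eBayes) of the 4 groups' means, with 8 residual and 2.19 prior degrees of freedom, adjusted by Benjamini-Hochberg over all of them at a threshold of 0.05. The fit was tested on simulated data. No probe set was filtered out, so that all 13 member probe sets were tested; 10 of them reached the 50th percentile of intensity, and both dim genes, Fosb and Myc, and the second Jund probe set did not. Each gene was represented by its brightest probe set over the 12 arrays. Symbols came from the platform annotation (34945 probe sets with 1 symbol, 932 with several, 9160 with none), and promoters from the RefSeq table, read with Python 3.11.15. All members are named, with up to 3 genes per list by smallest adjusted p in TG tamoxifen against TG vehicle, Esr1 and Hspa5, and the 3 nearest profiles to Egr1, Fos and Atf3. The members, lists and motifs were chosen with earlier results of these data known, and TGACGT and TGACATCA after the promoters had been read. The labels say that each heart had its own array. Replicate numbers gave no pairing: deviations of same-numbered arrays correlated at -0.0981 to 0.120, with 1 of 18 pairs over 0.1. Alternatives changed the scaling, pseudocount, filter, probe set choice, moderation, arrays, grouping and block.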

Additional observations from a re-analysis of the deposited data

How the results depend on the processing

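Over up to 26 alternatives per comparison, no member gene changed direction in a comparison in which it passed. Of these alternatives 1 (without both NTG tamoxifen 1 and TG vehicle 3) was added after the data were seen. Signs did turn in comparisons where a gene did not pass, as for Dusp1 (-0.31 to 0.21) in NTG tamoxifen against NTG vehicle. In TG tamoxifen against TG vehicle 3 genes passed. The count was 5 with probe sets at or above the 50th percentile and 5 with 1 probe set per gene above it (8 of the 10 genes tested), 6 with an intensity trend, and 0 with only the arrays compared, with TG vehicle 3 grouped as TG tamoxifen, without TG vehicle 3 and TG tamoxifen 1 (the array labelled 40 weeks), or with the replicate number as a block (replicate block, 7 at an unadjusted p under 0.05). It was 4 without NTG tamoxifen 1 and TG vehicle 3. Over all 45037 probe sets 1399 passed in the main fit and 0 without TG vehicle 3 and TG tamoxifen 1. With dim probe sets left out 4133 of 22519 passed, and with 1 probe set per gene 2774 of 11165. Of the 45037, 3982 passed with the trend, 516 with only the arrays compared and 241 with the replicate block. With TG vehicle 3 regrouped 4 passed, and without NTG tamoxifen 1 and TG vehicle 3 1603 did. In TG vehicle against NTG vehicle the count of 0 became 2 with either filter and 2 with the trend. Over all features 1377 of 22519 probe sets and 405 of 11165 genes passed with the filters, and 1310 of 45037 probe sets with the trend. In TG tamoxifen against NTG tamoxifen the count of 4 became 5 with either filter, 6 with the trend and 0 with only the arrays compared. Over all features 8439 of 22519 probe sets and 4411 of 11165 genes passed with the filters. Of all 45037 probe sets 6166 passed in the main fit, 8338 with the trend and 2110 with only the arrays compared. The member count became 3 with the deposited scaling, median centring, the mean of a gene's probe sets, robust moderation or the replicate block. In the same order 6408, 5924, 2655 (of 18193 genes), 5826 and 4735 features passed. The member count was 1 with TG vehicle 3 regrouped or without TG vehicle 3 and TG tamoxifen 1, where 3415 and 2378 probe sets passed. It stayed at 4 without NTG tamoxifen 1 and TG vehicle 3, where 6595 did. For the difference of tamoxifen effects the count of 0 became 1 with median centring, either filter, the trend, or without NTG tamoxifen 1 and TG vehicle 3 together. Over all features 2397 of 22519 probe sets and 1592 of 11165 genes passed with the filters. Of all 45037 probe sets 395 passed with median centring, 2348 with the trend and 618 without those arrays. Leaving out each array in turn gave 0 to 6 genes in TG tamoxifen against TG vehicle, 0 in NTG tamoxifen against NTG vehicle and in TG vehicle against NTG vehicle, between 1 and 5 in TG tamoxifen against NTG tamoxifen and between 0 and 3 for the difference. In the same order 16 to 2575, 0 to 124, 0 to 134, 3167 to 6892 and 0 to 1281 of the 45037 probe sets passed. Fewer arrays, and fewer features tested under the filters, are part of these settings; other causes were not tested. Probe sets of dim genes such as Fosb have little signal over background.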

Other observations

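In TG tamoxifen against NTG tamoxifen, 22 of the 135 related genes were higher and 9 lower, where 13.7% of all probe sets passed. Without the array labelled NTG tamoxifen 1, 42 of the 135 passed, where 6892 of the 45037 probe sets did. The counts higher and lower were 10 and 6, 10 and 5, and 12 and 5 without TG tamoxifen 1, 2 and 3, and 12 and 6, and 9 and 5 without NTG tamoxifen 2 and 3. In the same order 3280, 3355, 3538, 4005 and 3167 of the 45037 probe sets passed. Atf4, the factor that induces Atf3 under ER stress, was 2.87 ± 0.46 log2 units higher (adjusted p = 0.00523) and Socs3 2.70 ± 0.45 higher (0.00584), and without NTG tamoxifen 1 they were 3.46 ± 0.30 and 3.26 ± 0.32 higher. Dusp7, a MAP kinase phosphatase, changed by -1.95 ± 0.33 (adjusted p = 0.00621), and Map2k2, the ERK activator MEK2, named after its value was seen, by -1.89 ± 0.20 (0.00247), and without that array by -2.32 ± 0.27 and -2.02 ± 0.20. In NTG tamoxifen against NTG vehicle 0 of the 135 passed in limma, with 24 at an unadjusted p under 0.05. In TG vehicle against NTG vehicle 0 passed, with 25. Of all 45037 probe sets 6144 and 6655 had an unadjusted p under 0.05 in these 2 comparisons.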
